A study of Mus musculus with 22 samples.

Results

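Transcripts annotated with a retained intron were followed through the ribosome-bound mRNA of 6 mouse brain cell types. They are the transcripts that the GENCODE annotation used by the authors gives the biotype retained_intron, and they were chosen by that label alone. There were 21915 of them among 142552 transcripts, in 9449 of 55385 genes. For the comparison of cell types, 3947 genes were tested, which held 10791 of these transcripts. Each tested gene had a mean level of at least 10 TPM (a level normalized for transcript length and library depth) in all 6 cell types, at least 1 retained intron transcript and at least 1 other transcript. The retained intron share is the percentage of a gene's TPM that lies on its retained intron transcripts.

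An intron that stays in a polyadenylated transcript usually changes or interrupts the reading frame. Such transcripts are often held in the nucleus or, once translated, removed by nonsense-mediated decay. Retained introns are known in many neuronal genes and in genes of the splicing machinery itself, where they take part in adjusting the amount of protein made. In the RiboTag method, Cre recombinase switches on a tagged ribosomal protein, RPL22, in 1 cell type, and tagged ribosomes are pulled from whole tissue with the RNA bound to them.

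All mice were 6 weeks old and carried Rpl22 Fl/+ with a Cre driver. Dentate gyrus granule cells (hippocampus) and layer V cortical neurons (cortex) both came from Rbp4-Cre, cerebellar granule cells from Gabra6-Cre, and inhibitory interneurons (hippocampus, 2 mice pooled per library) from Dlx6a-Cre. Cortical astrocytes came from mice labelled Aldh1-cre, which the methods give as Aldh1l1-cre/ERT2, and cortical microglia from mice labelled Tmem119-cre, also a cre/ERT2 line. Both are tamoxifen-dependent, and per the methods mice of inducible lines were given tamoxifen by oral gavage. The drivers of the neuronal types are not given as inducible. Treatment therefore coincides with glia, so glia against neurons cannot be told apart from treated against untreated mice. There were 3 replicates per cell type, and 4 of these 18 replicates were sequenced in 2 batches, which gave 22 libraries. The batch 1 library of each repeated replicate was used, and every interneuron and microglia library was of batch 2.

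The libraries held 38270477 to 71440915 estimated counts, and 463309 to 2258713 of these lay on retained intron transcripts. Markers of each cell type were highest in its own libraries, except that the layer V list was led by Etv1 in cerebellar granule cells (728 TPM against 82.5 in layer V) and Bcl11b in dentate granule cells. Libraries also held RNA of other cells. Oligodendrocyte markers summed to 2498 TPM in interneurons against 108 to 835 in the other cell types, and endothelial markers to 157 TPM in microglia against 3.73 to 27.9. The batch 2 library of layer V replicate 1 is labelled male and its batch 1 library female, and both held Xist (2.13 and 2.45 TPM) with Y-linked genes at 0.485 and 0.385 TPM. It enters only alternative settings.

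The introns below show what a member holds that the spliced mRNA lacks. They were chosen, with the values known, among introns that lie whole within an exon of the leading retained intron transcript of a gene described further on, lie in the coding region and are no longer than 300 bases. Each is written 5′ to 3′ on the gene's strand from the GRCm38 assembly, with the donor GT and the acceptor AG in capitals.
Faah-203, intron 14 of 14, chr4:115998616-115998820, minus strand: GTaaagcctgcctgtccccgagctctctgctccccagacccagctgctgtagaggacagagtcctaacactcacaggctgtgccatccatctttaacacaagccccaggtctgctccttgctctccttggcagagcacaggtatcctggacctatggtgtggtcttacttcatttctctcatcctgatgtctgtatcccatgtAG
Fcho1-208, intron 24 of 25, chr8:71709091-71709329, minus strand: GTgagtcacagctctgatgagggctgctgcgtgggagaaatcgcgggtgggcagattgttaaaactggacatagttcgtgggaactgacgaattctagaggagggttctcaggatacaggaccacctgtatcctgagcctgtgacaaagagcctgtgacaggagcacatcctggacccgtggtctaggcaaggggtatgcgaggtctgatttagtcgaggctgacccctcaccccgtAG
Shfl-205, intron 6 of 7, chr9:20872972-20873109, plus strand: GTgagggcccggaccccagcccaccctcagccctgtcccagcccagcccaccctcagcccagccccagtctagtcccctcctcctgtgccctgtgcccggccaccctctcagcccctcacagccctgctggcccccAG
Fibp-209, intron 7 of 9, chr19:5463851-5464128, plus strand: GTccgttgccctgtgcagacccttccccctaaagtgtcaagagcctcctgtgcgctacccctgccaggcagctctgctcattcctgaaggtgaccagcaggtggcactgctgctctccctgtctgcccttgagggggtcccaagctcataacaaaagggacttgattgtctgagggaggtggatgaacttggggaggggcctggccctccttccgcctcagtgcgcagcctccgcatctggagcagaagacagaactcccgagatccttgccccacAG
Sept4-213, intron 10 of 11, chr11:87589819-87589955, plus strand: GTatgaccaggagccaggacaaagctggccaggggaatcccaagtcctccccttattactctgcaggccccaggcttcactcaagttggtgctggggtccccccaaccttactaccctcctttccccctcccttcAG
Mbip-203, intron 3 of 8, chr12:56340298-56340384, minus strand: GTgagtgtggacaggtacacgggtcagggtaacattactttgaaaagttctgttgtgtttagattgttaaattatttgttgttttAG
Eef1a1-203, intron 6 of 7, chr9:78479193-78479277, minus strand: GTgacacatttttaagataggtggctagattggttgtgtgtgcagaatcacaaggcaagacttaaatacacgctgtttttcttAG

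The first 4 belong to genes whose share was higher in glia, Sept4 had its highest share in microglia and Mbip in dentate granule cells, and the Eef1a1 intron belongs to a gene whose share stayed under 0.4% in every library. These members are not always the whole of a gene's retained intron level. Mbip-203 is the only member of its gene, while Faah-203 held 36.9% of the retained intron TPM of Faah, Eef1a1-203 36.6%, Sept4-213 45.8%, Fcho1-208 54.5%, Shfl-205 61.5% and Fibp-209 63.1%. The GC content of these introns ran from 35.6% in Mbip to 73.9% in Shfl. Across the tested genes, 4495 introns of protein-coding transcripts lay whole within a retained intron transcript and 54188 did not (GENCODE M21). The retained introns had a median length of 262 bases and a median GC content of 51.3%, against 1391 bases and 45.1% for the others, and 54.0% of them were shorter than 300 bases against 17.4%. These are descriptions of the annotation, and the introns of a gene are not independent of each other.

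The label covers transcripts of several kinds. Of 21393 members that could be placed in a gene with a protein-coding transcript, 6473 held a whole annotated intron, and 14797 held intronic bases without spanning a whole intron, such as an exon that runs on into an intron and ends there. The median member was 884 bases long and had 42.0% of its bases outside the exons of its gene's protein-coding transcripts. A read that falls on the rest of a member also fits the coding transcripts, and kallisto divided such reads between them. The exons of protein-coding transcripts, untranslated parts included, are called coding exons below. A base in them can still be intronic in another coding transcript of the gene. The members were unevenly measured. Of the 21915, 5112 had at least 1 estimated count in all 18 libraries, 3743 had a mean of at least 1 TPM, 437 had a mean of at least 10 TPM, and 1142 stayed under 1 estimated count in every library.

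The microglia libraries had the highest share of their TPM on retained intron transcripts. The members took 4.47%, 4.50% and 4.95% of TPM in the 3 microglia libraries. In dentate granule cells they took 2.86%, 2.48% and 3.04%, in layer V neurons 2.57%, 2.64% and 2.99%, and in cerebellar granule cells 2.87%, 2.72% and 2.78%. In interneurons they took 2.66%, 2.66% and 2.99%, and in astrocytes 3.03%, 2.59% and 2.42%. All 3 microglia libraries lay above all 15 others, and the other 5 cell types overlapped one another.

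The mean over the 3 microglia libraries was 4.64% ± 0.27 (SD, n = 3), which was 1.69 times the mean of the 15 libraries left, 2.75% ± 0.20 (SD, n = 15). A two-sided exact permutation test over libraries gave p = 0.0012, the smallest that 816 splits allow, and p = 0.0086 after Benjamini-Hochberg adjustment over the 7 comparisons made. With 1 microglia library left out, the difference was 1.74 to 1.97 percentage points and the exact permutation test could reach no adjusted p under 0.051. The other 5 cell types gave no call (exact permutation tests, adjusted p = 0.66 for each). Glia together were at 3.66% ± 1.11 (SD, n = 6) and neurons at 2.77% ± 0.18 (SD, n = 12), with an exact permutation p of 0.019 and an adjusted p of 0.065, and without microglia the astrocytes lay 0.094 percentage points under the neurons. Within batch 2, which holds no more than 1 library of any cell type but interneurons and microglia, the microglia difference was 1.905 percentage points (exact permutation test, adjusted p = 0.025).

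**Figure D1:**
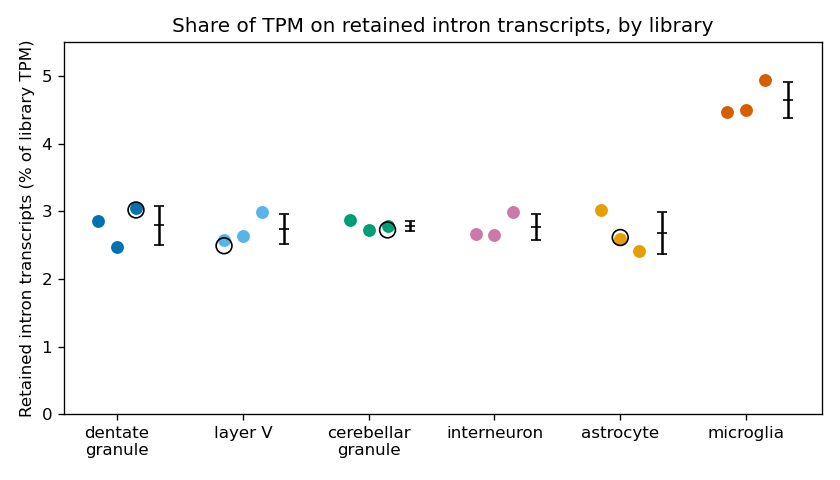
Percentage of library TPM on retained intron transcripts (y axis) in each library, by cell type (x axis). Filled points are the 18 libraries used, open circles the batch 2 libraries of the 4 replicates sequenced in both batches, and bars the mean ± SD of 3 libraries. The 3 microglia libraries, between 4.47% and 4.95%, lie above all the others.

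The higher level in microglia was present in members of each kind. Members that hold a whole intron took 1.31% ± 0.084 of TPM in microglia (SD, n = 3) and between 0.56% and 0.74% on average in the other cell types. Members without a whole intron and with under 10% of their bases outside coding exons took 1.15% ± 0.030 in microglia (SD, n = 3) against 0.58% to 0.72%. These 1448 members include Itm2b-202, with a mean of 2988.5 TPM in microglia and 312 to 981 TPM in the other cell types. The remaining matched members took 2.17% ± 0.15 (SD, n = 3) against 1.39% to 1.51%. More members were also measured in microglia, where 6194 to 6893 reached 1 TPM per library against 2028 to 4388 in the other libraries.

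RNAs known to be largely nuclear were also highest in microglia. The summed level of 7 nuclear non-coding RNA genes (Malat1, Neat1, Meg3, Miat, Snhg11, Rian and Kcnq1ot1) was 2056 to 2585 TPM in microglia and 220 to 1035 TPM elsewhere. Within astrocytes the replicate with the highest retained intron share, replicate 1, had 1035 TPM, and replicates 2 and 3 had 732 and 526 TPM. Within dentate granule cells replicate 2, with the lowest share, had 331 TPM against 875 and 805 TPM. Between the other cell types the order differed, since astrocytes had the highest mean level of these RNAs (764 TPM) and the lowest mean share (2.68%), and cerebellar granule cells the lowest level (280 TPM) at a share of 2.79%. Over the 15 libraries without microglia, which fall into 5 cell types, Pearson's r with the library share was 0.51 and Spearman's rho 0.39, given as a description. Transcripts annotated as targets of nonsense-mediated decay took 2.44% to 2.45% of TPM in microglia and 1.81% to 2.23% elsewhere. The part of nuclear RNA, and of the endothelial RNA given above, in the retained intron share was not tested. In bulk samples of this kind a different mix of cells and a different level per cell cannot be told apart.

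**Figure D2:**
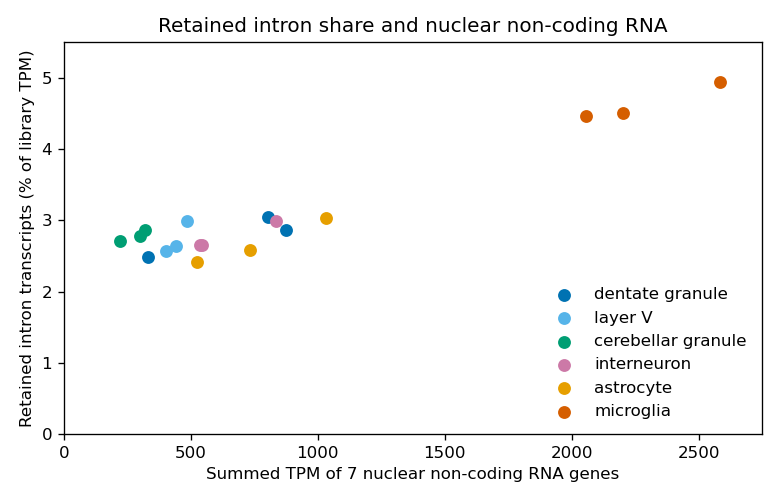
Percentage of library TPM on retained intron transcripts (y axis) against the summed TPM of 7 nuclear non-coding RNA genes (x axis) in the 18 libraries used, coloured by cell type. The microglia libraries lie apart on both axes, above 2056 TPM and 4.47%.

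The 10 highest members held 9.67% to 12.8% of the retained intron TPM in dentate granule cell, interneuron, astrocyte and microglia libraries, and 19.8% to 25.7% in layer V and cerebellar granule libraries. Itm2b-202, of the gene for a small transmembrane protein linked to familial dementia, had the highest mean level, with 2942, 2899 and 3125 TPM in microglia, 900 to 1054 TPM in astrocytes, 811 to 991 TPM in cerebellar granule cells and 303 to 599 TPM in the other neurons. Only 78 of its 935 bases lie outside coding exons. Ppia-203, of the gene for the prolyl isomerase cyclophilin A, was at 412 to 483 TPM in microglia, close to the 458 to 487 TPM of cerebellar granule cells, and highest in dentate granule cells at 747 to 767 TPM. Myl12b-202, of a myosin regulatory light chain gene, lay between 135 and 155 TPM in astrocytes and between 308 and 507 TPM in every other cell type.

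The other 2 of the 5 highest members share no base with an exon of a protein-coding transcript of their gene. A gene without any protein-coding transcript also gets this value, so it does not place them in introns of a coding gene. AA465934-201 was at 1310, 1579 and 3700 TPM in layer V neurons and at 1821, 1135 and 547 TPM in cerebellar granule cells, and stayed under 22 TPM in the other 12 libraries. Gm43305-201 was at 1600 to 1838 TPM in cerebellar granule cells and at 87.5 to 353 TPM elsewhere. Without the 10 highest members, the microglia difference in library share was 1.79 percentage points (exact permutation test, adjusted p = 0.0086).

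Within genes, the retained intron share was usually small. The median over genes was lowest in cerebellar granule cells, followed by layer V neurons, interneurons, dentate granule cells, astrocytes and microglia, and neighbours in this order overlapped except layer V neurons with interneurons and astrocytes with microglia. The median share over the 3947 genes was 0.64% to 0.96% in the cerebellar granule libraries, 0.85% to 0.98% in layer V, 1.20% to 1.67% in interneurons, 0.99% to 2.20% in dentate granule cells, 1.78% to 3.00% in astrocytes and 4.97% to 6.03% in microglia. The dentate range was opened by replicate 2, at 0.99% against 2.03% and 2.20%. Microglia had the highest mean share in 2849 genes (72.2%), and cerebellar granule cells (1646 genes) and layer V neurons (1271 genes) most often had the lowest.

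**Figure D3:**
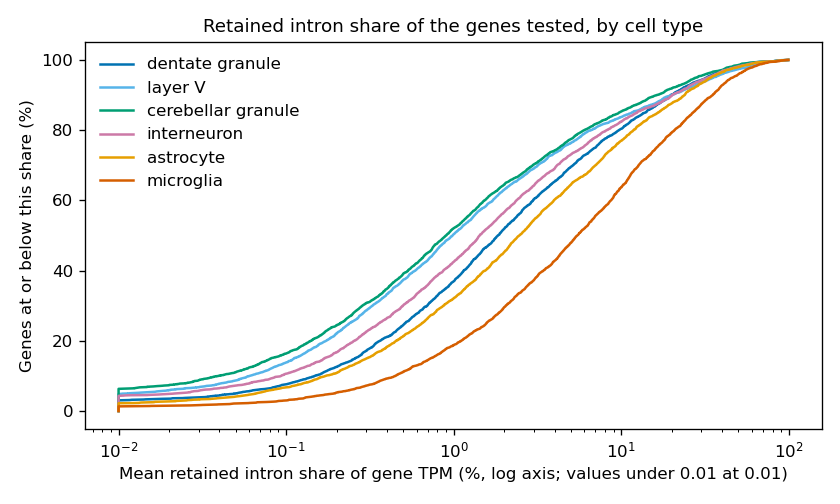
Cumulative percentage of the 3947 genes tested (y axis) at or below a mean retained intron share of gene TPM (x axis, log scale, with values under 0.01% drawn at 0.01%), 1 line per cell type. The microglia line lies furthest to the right, with a median of 5.46% against 0.90% in cerebellar granule cells and 2.46% in astrocytes.

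Genes at the extremes were few on the high side. In 42 genes the mean share was over 50% in all 6 cell types, and in 625 genes it was under 1% in all of them. Near the level required, Myh9, with a lowest cell type mean of 10.01 TPM, had shares of 0 to 5.79%, and Tnks, at 9.997 TPM and so not tested, had shares of 0 to 0.564%. In the 4 replicates sequenced in both batches, the share of a gene differed between the batches by a median of 0.31 to 0.58 percentage points, and between different replicates of these cell types by 0.36 to 0.79.

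The 5 genes of highest share were on retained intron transcripts almost throughout. Carmil2, an actin regulator, was at 98.8% or more in all 18 libraries, and Gfra4, a receptor for the neurotrophic factor persephin, at 93.0% to 98.2%, although its leading member has no base outside coding exons. Taf10, a subunit of the transcription factor TFIID, lay between 89.5% and 96.8%, and Atg4d, an autophagy protease, between 86.4% and 94.6%. Gm43305, named above for its member, lay between 91.2% and 98.6%. Carmil2, Taf10 and Atg4d overlap Acd, Ilk and Kri1 on the opposite strand, and whether kallisto used strand is not given in the sources used here, so reads of such partners cannot be told apart.

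The share differed among the 6 cell types in 3594 of 3947 genes, 91.1% (limma's moderated F test on the log2 ratio of retained intron to other TPM of the gene, each plus 0.5, at a Benjamini-Hochberg adjusted p of at most 0.05). These p-values measure only the spread between the libraries. In edgeR's quasi-likelihood test of estimated counts 3179 genes were called. Each cell type was then compared with the mean of the other 5.

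In microglia, 2939 genes (74.5% of those tested) had a higher ratio and 272 (6.89%) a lower one. The median log2 difference there was 1.24 over all genes. In cerebellar granule cells, 298 (7.55%) were higher and 2319 (58.8%) lower, and in layer V neurons 500 (12.7%) were higher and 1556 (39.4%) lower. In interneurons, 257 (6.51%) were higher and 1152 (29.2%) lower, in dentate granule cells 338 (8.56%) were higher and 726 (18.4%) lower, and in astrocytes 1501 (38.0%) were higher and 448 (11.4%) lower. Between glia and neurons, 2900 genes (73.5%) were higher in glia and 301 (7.63%) lower. Only the glial types came from tamoxifen-induced lines, and the part of that treatment in these counts was not tested. These 7 comparisons share libraries and are not independent. Calls rest on the ratio, and in some the difference in mean share had the opposite sign. These were 256 of 1949 called genes in astrocytes, 148 of 2056 in layer V neurons and 109 of 2617 in cerebellar granule cells. Microglia had 81 of 3211, dentate granule cells 54 of 1064, interneurons 52 of 1409, and glia against neurons 112 of 3201. Over all genes, the median difference in share was 0.028 percentage points in astrocytes and 2.64 in microglia. Within batch 2, 2804 genes were higher and 250 lower in microglia.

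The counts in neurons moved with microglia among the reference cell types. Without microglia in the fit, dentate granule cells had 541 genes higher and 414 lower, interneurons 268 and 444, layer V neurons 565 and 832, and cerebellar granule cells 348 and 1671. Within batch 1, which holds no microglia, dentate granule cells had 472 higher and 375 lower, and within batch 2, with 1 dentate granule library, 76 and 98. Their balance also rested on single libraries, with 220 higher and 803 lower without replicate 1, 465 and 492 without replicate 2, and 244 and 686 without replicate 3. Interneurons had 158 higher and 777 lower without replicate 1 and 182 and 747 without replicate 2.

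The number of calls was also counted on other scales. Where a member is near 0 the ratio follows the rest of the gene, so the fit was repeated on log2 of the share plus 1 percentage point. It called 2803 genes higher and 137 lower in microglia, but 666 and 193 in astrocytes, 118 and 492 in interneurons and 144 and 288 in dentate granule cells. With each library centred on its own median ratio, which removed 1.38 on the log2 scale from the microglia difference, 1079 genes were higher and 1497 lower in microglia. On that relative scale cerebellar granule cells had 1179 higher and 887 lower, layer V neurons 1014 and 877, interneurons 759 and 478, dentate granule cells 648 and 544, astrocytes 797 and 959, and glia against neurons 1125 and 1581. Centring sets the median of every library to 0, so it removes any shift that all genes share and brings the counts of higher and lower genes near to each other by construction. Without microglia in the fit, 2023 genes were higher and 378 lower in astrocytes against the 4 neuron types.

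**Figure D4:**
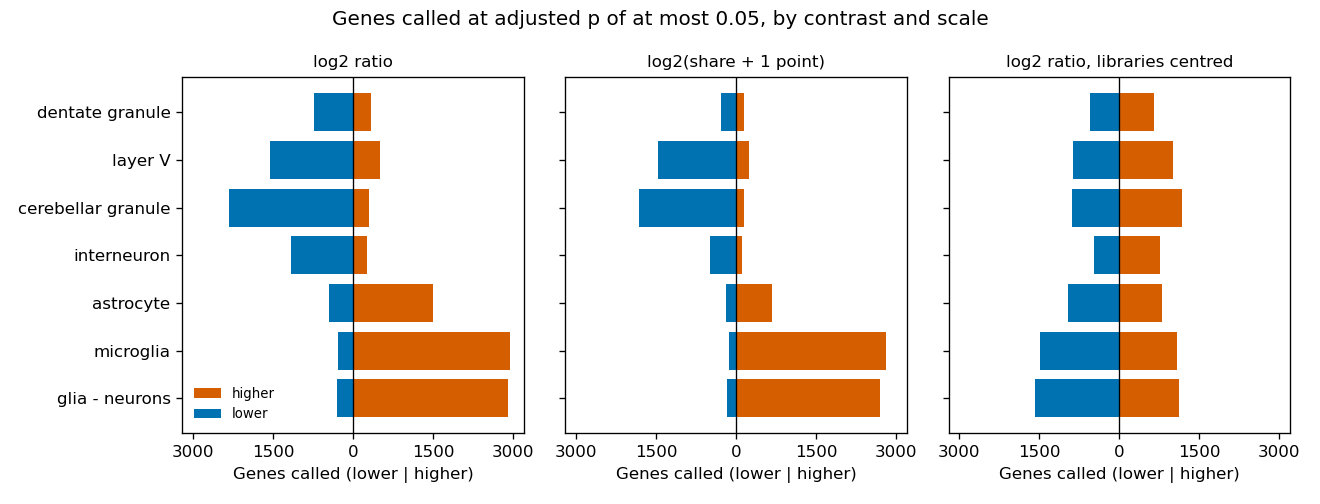
Number of genes called at an adjusted p of at most 0.05 (x axis, lower to the left and higher to the right) in each of the 7 comparisons (y axis), on the log2 ratio, on log2 of the share plus 1 percentage point, and on the log2 ratio with each library centred on its median. In microglia 2939 genes were higher and 272 lower on the first scale and 2803 and 137 on the second. Centring removes a shift shared by all genes by construction, and with it the counts were 1079 and 1497.

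The rise in microglia lay in both parts of the ratio. Of the 2939 genes called higher there, 89.0% had more retained intron TPM than the mean of the other cell types. In 81.2% the TPM on their other transcripts was lower. Both held for 2063. In astrocytes, 46.4% of the 1501 genes called higher had more retained intron TPM and 97.5% had less other TPM. These genes were called on the ratio of these parts, so 1 or the other was nearly bound to hold, and the percentages over all genes were not counted. Summed over all tested genes, retained intron transcripts held 36055 TPM in microglia and 22091 to 24038 TPM in the other cell types. The other transcripts of these genes held 382210 TPM in microglia and 420910 to 489180 TPM in the other cell types. In the third of genes whose level in microglia was highest against the other cell types, 685 of 1316 were called higher (52.1%). In the third with the lowest relative level, 1218 of 1316 were called higher (92.6%). The level of a gene is the denominator of its share, so these measures are linked by arithmetic. Genes whose retained introns were short had the higher shares, with a median share of 5.54% in the third with the shortest introns (median 110 bases) and 2.53% in the third with the longest (median 1107 bases), while the median microglia difference was 1.23 and 1.27 on the log2 scale.

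The genes named for each cell type are those of largest difference in percentage points among called genes whose libraries did not overlap the rest, so their sizes are those of a selection. In microglia they were Faah, Fcho1, Aifm3 and B4galnt4. Faah, which breaks down the endocannabinoid anandamide (chromosome 4, 115967145 to 116017926), was at 70.3%, 66.5% and 69.5% in microglia, 30.9% to 38.4% in astrocytes, 15.96% to 24.3% in interneurons and 3.29% to 12.1% in the other neurons. No microglia library overlapped any other, and the log2 difference was 3.71 (standard error 0.18, limma adjusted p = 1.9e-10). Its retained intron TPM was 13.9 in microglia and 11.5 in dentate granule cells, and its other TPM 6.37 and 106. The last intron of Faah, printed above, is kept by Faah-203, the leading member. That member was at 3.10 TPM in microglia, 4.37 TPM in dentate granule cells and 4.19 TPM in layer V neurons, so the 13.9 TPM of microglia lay mostly on other members of the gene.

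Fcho1, which starts clathrin-coated pits, was at 68.7%, 66.2% and 63.7% in microglia and 50.0%, 50.7% and 43.0% in astrocytes. In neurons it reached 21.3% at most, and in dentate granule cells replicate 2 lay at 2.54% against 21.3% and 17.8%. Its log2 difference between glia and neurons was 4.19 (standard error 0.36, limma adjusted p = 5.9e-08). B4galnt4, a glycosyltransferase, was at 71.4% to 78.9% in microglia, 39.0% to 49.9% in astrocytes and 11.1% to 27.9% in neurons. Aifm3, of the apoptosis-inducing factor family, was at 80.4% to 82.2% in microglia and between 15.4% and 58.7% in all other libraries, with an SD of 17.4 percentage points among the dentate granule replicates.

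Glia stood above neurons also in Dpm1, Shfl and Actr10. Dpm1, the catalytic subunit of dolichol-phosphate mannose synthase, was at 65.9% to 92.3% in the 6 glial libraries and 10.6% to 50.2% in the 12 neuronal ones. Shfl, an inhibitor of ribosomal frameshifting, was at 53.2% to 77.6% in glia and 8.90% to 33.9% in neurons, with a log2 difference of 2.94 (standard error 0.19, limma adjusted p = 2.9e-09). Actr10, a dynactin subunit, was at 46.6% to 64.6% in glia and 0.341% to 28.5% in neurons. Dpm1 overlaps Gm20716 on its own strand and Shfl overlaps Angptl6 on the other.

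Eif1ax, an initiation factor that helps the ribosome find the start codon, was seen on a retained intron transcript almost only in glia. Its single retained intron transcript, Eif1ax-202, gave 55.9%, 50.3% and 51.0% of the gene's TPM in microglia and 24.02%, 13.8% and 31.1% in astrocytes. In 11 of the 12 neuronal libraries it was listed at 0, and in dentate replicate 3 it was at 0.86%. The glial and neuronal libraries did not overlap (F test over the 6 cell types, limma adjusted p = 2.6e-11). The member keeps no whole intron, and 94 of its 416 bases lie outside coding exons.

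**Figure D5:**
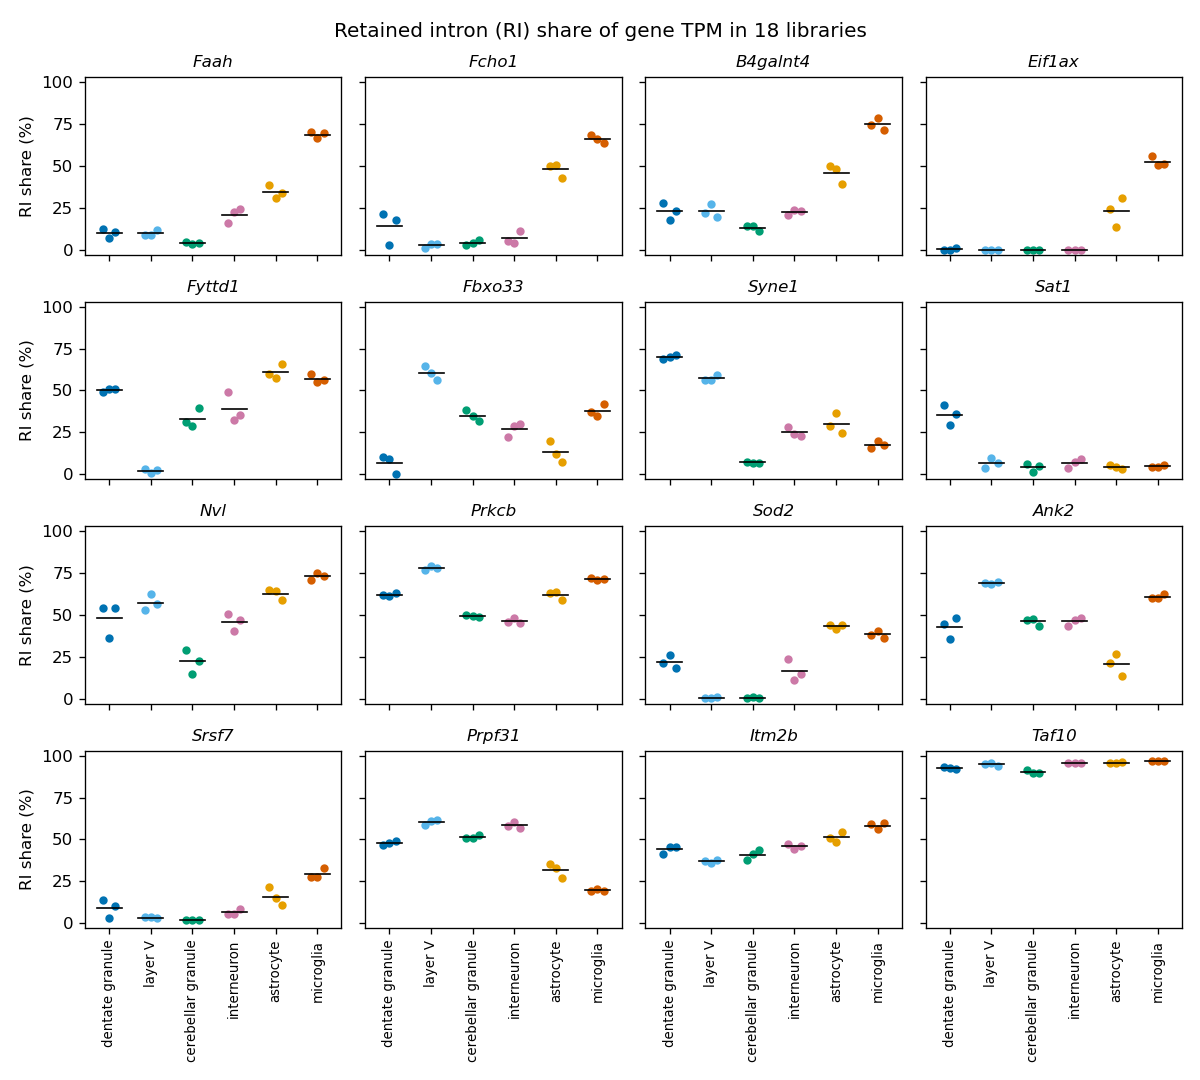
Retained intron share of gene TPM (y axis, percent) in the 18 libraries for 16 of the genes described, by cell type (x axis). Points are libraries and lines are means of 3 libraries. Faah, Fcho1, B4galnt4 and Eif1ax are higher in glia, Prpf31 is lower there, Fyttd1 falls near 0 in layer V neurons, and Taf10 stays at 89.5% or more throughout.

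Astrocytes were highest in Fam173a, Fibp and Sod2 and lowest in Ank2. Fam173a, a mitochondrial lysine methyltransferase, was at 60.0%, 60.6% and 59.5% in astrocytes, 40.6% to 46.9% in microglia and 12.0% to 37.5% in neurons. Fibp, which binds acidic fibroblast growth factor, was at 32.0% to 40.8% in astrocytes, 18.4% to 24.9% in microglia and 1.81% to 10.4% in neurons, with a log2 difference of 2.85 (standard error 0.26, limma adjusted p = 5.7e-07). Sod2, the mitochondrial superoxide dismutase, was at 41.6% to 43.9% in astrocytes and 36.2% to 40.6% in microglia, and at 0.089% to 0.744% in layer V and cerebellar granule cells, whereas dentate granule cells and interneurons lay between 10.8% and 26.1%. Ank2, the membrane adaptor ankyrin-B, was at 21.1%, 26.9% and 13.7% in astrocytes and at 35.8% or more in every other library. Its leading member, Ank2-216, has 1 base outside coding exons and holds no whole intron. Fam173a overlaps Ccdc78 and Fibp overlaps Ctsw on the opposite strand.

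Layer V neurons differed most in Fyttd1, Dennd4a, Fmnl1 and Fbxo33. Fyttd1, an adaptor for mRNA export, was at 2.77%, 0.394% and 2.62% in layer V neurons and at 29.0% to 65.8% in all other libraries, with a log2 difference of -5.12 (standard error 0.27, limma adjusted p = 1.0e-08). Its other TPM was 52.2 in layer V neurons and 60.1 in dentate granule cells, and its retained intron TPM 1.04 and 60.7. Dennd4a, an activator of Rab10, was at 62.5% to 67.1% in layer V neurons and at most 46.8% elsewhere. Fmnl1, a formin that builds actin filaments, was at 71.4% to 73.7% in layer V neurons, with dentate granule cells next at 53.8% to 60.7% and microglia lowest at 16.1% to 17.3%. Fbxo33, of an E3 ligase, was at 64.4%, 60.2% and 56.4% in layer V neurons and between 0.178% and 41.8% elsewhere.

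Dentate granule cells differed most in Syne1, Sat1, Iqsec1 and Mbip. Syne1, which links the nucleus to the cytoskeleton, was at 68.6%, 69.8% and 71.0% there, 55.97% to 59.1% in layer V neurons and 6.62% to 7.32% in cerebellar granule cells, so that it was both the leading dentate gene and among the leading cerebellar ones. The log2 difference was 2.83 in dentate granule cells (standard error 0.15, limma adjusted p = 4.1e-09) and -3.03 in cerebellar granule cells (standard error 0.15, limma adjusted p = 7.1e-10). Sat1, which acetylates spermidine and spermine, was at 41.1%, 29.1% and 35.6% in dentate granule cells and under 10% in all other libraries, where its other TPM was 20.1 to 415 against 7.13. Iqsec1, an Arf activator, was at 0.143%, 0.160% and 3.64% in dentate granule cells and 7.11% to 35.5% elsewhere, and its leading member has no base outside coding exons. Mbip, of the ATAC acetyltransferase complex, was at 41.6% to 47.2% in dentate granule cells, just above the 38.4% to 40.5% of cerebellar granule cells, and lowest in glia at 3.95% to 15.2%.

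Cerebellar granule cells were lowest in Nvl, Ift172, Syne1 and Pck2. Nvl, an ATPase of ribosome assembly, was at 29.3%, 14.8% and 22.6% there and at 36.3% to 74.8% elsewhere. Ift172, of the intraflagellar transport machinery, was at 8.90% to 14.7%, against 18.7% to 65.0% elsewhere, and Pck2, the mitochondrial phosphoenolpyruvate carboxykinase, at 3.21% to 10.9% against 22.2% to 54.5%. The log2 differences were -2.13 (standard error 0.23) for Nvl, -2.42 (0.29) for Ift172 and -2.89 (0.33) for Pck2.

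Interneurons differed most in Ngrn, Prkcb, Sept4 and Amdhd2. Ngrn, needed for mitochondrial ribosome assembly, was at 43.3% to 47.5% in interneurons, 38.1% to 41.9% in astrocytes and 12.4% to 29.4% elsewhere. Amdhd2, of hexosamine metabolism, was at 34.2% to 35.9% in interneurons and at most 25.0% elsewhere. Prkcb, the beta form of protein kinase C, was at 45.3% to 48.2% in interneurons, just under the 49.0% to 50.1% of cerebellar granule cells, and highest in layer V neurons at 77.1% to 79.2%. Sept4, a septin, was at 6.03% to 6.499% in interneurons and highest in microglia at 58.0% to 59.6%. Counted only on members with a whole intron, the Prkcb difference of interneurons fell to -0.12 on the log2 scale (limma adjusted p = 0.39).

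The gene lists are given by their counts and medians, to be read against all genes tested, of which 74.5% were higher and 6.89% lower in microglia, 58.8% lower in cerebellar granule cells and 38.0% higher in astrocytes. Of 10 SR proteins tested, which bind exons and promote splicing, 9 were higher in microglia and none lower, and 8 were lower in cerebellar granule cells. Srsf7 was at 27.4%, 27.6% and 32.7% in microglia, 10.5% to 21.8% in astrocytes and 1.80% to 14.0% in neurons, Srsf3 at 7.85% to 9.81% in microglia and 0.622% to 10.8% elsewhere, and Srsf2 at 15.8% to 19.6% and 2.96% to 17.9%. The last 2 overlap between microglia and astrocytes. The median log2 difference of the 10 in microglia was 1.36 against 1.24 over all genes, and -0.02 with libraries centred, where 2 were higher and 2 lower. On that centred scale, 1079 of all 3947 genes were higher and 1497 lower.

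Of 6 SR protein kinases, 5 were higher in microglia and none lower, beside 74.5% higher over all genes (median 1.06, and -0.33 with libraries centred). Srpk1 was at 47.6% to 65.4% in glia and 16.7% to 39.7% in neurons, Srpk2 at 3.79% to 4.21% in microglia and 1.23% to 2.96% elsewhere. Clk1, whose retained introns are known to adjust its amount, was at 27.5% to 28.8% in microglia within the 4.89% to 38.4% of the others. The Srpk2 and Clk1 differences of microglia turned negative with libraries centred. That of Clk1, 0.58 on the log2 scale, was 0.083 against protein-coding transcripts alone (limma adjusted p = 0.79) and 0.28 on members with a whole intron (limma adjusted p = 0.087), and its call was lost without any 1 microglia replicate (limma adjusted p = 0.074 to 0.098). Of 47 spliceosome genes, 37 were higher and 4 lower in microglia, where 74.5% of all genes were higher (median log2 difference 1.27, and -0.11 with libraries centred). In cerebellar granule cells, where 58.8% of all genes were lower, 39 were lower, 30 on the share plus 1 percentage point and 18 with libraries centred. On these last scales 1813 and 887 of all 3947 genes were lower there. Luc7l, of the U1 particle, was at 18.2% to 26.7% in microglia and 1.05% to 16.2% elsewhere, and Eftud2, the U5 GTPase, at 17.6% to 22.8% and 1.12% to 8.18%.

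Prpf31, of the U4/U6 particle, ran the other way. It was at 19.4%, 20.2% and 19.4% in microglia, 35.4%, 32.98% and 26.7% in astrocytes and 46.6% to 61.6% in neurons, a log2 difference of -1.96 for microglia (standard error 0.11, limma adjusted p = 1.1e-09). Of 17 hnRNPs, 12 were higher and 2 lower in microglia, beside 74.5% higher over all genes (median 0.78, and -0.60 with libraries centred). Pcbp2 was at 14.3% to 16.6% in microglia and 3.01% to 10.9% elsewhere, a difference that turned negative with libraries centred, Hnrnpr at 6.36% to 6.98% in cerebellar granule cells and at most 2.31% elsewhere, and Hnrnpul1 stayed under 1.41% throughout.

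Of 7 genes of nonsense-mediated decay and the exon junction, 6 were higher in microglia and none lower, beside 74.5% higher over all genes (median 1.92, and 0.54 with libraries centred). Upf3a was at 3.93% to 4.86% in microglia and 0.471% to 3.00% elsewhere, a difference that turned negative with libraries centred. Smg6 stayed under 0.57% in all libraries.

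Ribosomal protein genes had a low share and fewer higher calls. Of 66 ribosomal protein genes, 22 were higher and 17 lower in microglia, beside 74.5% and 6.89% of all genes, with a median log2 difference of 0.42. With libraries centred, 4 were higher and 40 lower (median -0.97), beside 1079 and 1497 of all 3947 genes. Their median share over the cell types was 0.38%, against 2.50% over all genes. Rpl37a was at 0.756% to 0.877% in microglia and 1.09% to 4.23% elsewhere, whereas the members of Rps27l and Rps15a were listed at 0 in most libraries, and their calls were lost with the share plus 1 percentage point. Of 41 translation factors, 31 were higher and 3 lower in microglia, beside 74.5% higher over all genes (median 0.80, and -0.58 with libraries centred). Besides Eif1ax, the helicase gene Eif4a2 was at 8.17% to 11.2% in microglia and at most 3.74% elsewhere, and its cofactor Eif4h at 6.67% to 8.01% and at most 3.27%. Eif4a2 overlaps small nucleolar RNA genes on its strand.

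Of 20 aminoacyl-tRNA synthetases, which charge tRNAs, 18 were higher and none lower in microglia, beside 74.5% higher over all genes (median 1.43, and 0.05 with libraries centred). In astrocytes, where 38.0% of all genes were higher, 11 were higher. On the share plus 1 percentage point 5 were higher, beside 666 of all 3947 genes. Their median share was 2.53%, against 2.50% over all genes. Among those named, Gars was under 1% in every library, Farsb under 0.4% and without a call on the share plus 1 percentage point, and Eprs was highest in interneurons at 3.05% to 3.68%. Of 50 nuclear genes of oxidative phosphorylation, 39 were higher and 1 lower in microglia, beside 74.5% higher over all genes (median 1.98, and 0.60 with libraries centred). Atp5l, Ndufb7 and Ndufb5 stayed under 0.7% in every library. Of 24 proteasome genes, 20 were higher and 1 lower, again beside 74.5% (median 1.54, and 0.16 with libraries centred), with Psmd7 at 2.67% to 3.75% in microglia and at most 0.882% elsewhere. Psmd3 was at 3.55% to 4.37% in microglia and at most 2.37% elsewhere, and Psmd4 at 1.08% to 1.48% and at most 0.736%.

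All 11 genes of synaptic vesicle release were higher in microglia and in astrocytes and lower in layer V and cerebellar granule cells, with a median log2 difference of 4.34 in microglia (2.96 with libraries centred). Over all genes, 74.5% were higher in microglia and 38.0% in astrocytes, and 39.4% were lower in layer V and 58.8% in cerebellar granule cells. On the share plus 1 percentage point all 11 were higher in microglia, 3 were higher in astrocytes (median 0.27, against 1.89 on the log2 ratio), and 9 were lower in layer V and in cerebellar granule cells. On that scale 2803 of all 3947 genes were higher in microglia and 666 in astrocytes, and 1469 were lower in layer V and 1813 in cerebellar granule cells. The member moved far less than the gene. Snap25, of the vesicle fusion complex, had 0.81 TPM on its retained intron transcript in microglia and 0.12 to 0.31 TPM in the other cell types, while its other transcripts were at 215 TPM in microglia, 566 TPM in astrocytes and 2265 to 10653 TPM in neurons. Its share was 0.257% to 0.473% in microglia and at most 0.030% elsewhere. Napb was at 2.27% to 4.35% in microglia and at most 1.11% elsewhere. Neuronal markers summed to 367 TPM in microglia and 867 TPM in astrocytes, and the part of RNA from neurons in these shares was not tested.

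Among the genes without a call by the F test, the 3 of highest level were Eef1a1, Hsp90aa1 and Tpt1. Eef1a1, the elongation factor that brings charged tRNAs to the ribosome, lay between 0.048% and 0.379%. Tpt1 lay between 1.03% and 4.05%. Its microglia difference, without a call in the main fit, was called as a rise in 6 alternatives and stayed without a call in 29. With libraries centred it was called as a fall, at -0.87 on the log2 scale (limma adjusted p = 0.0011). On members with a whole intron the Tpt1 difference was 3.36 on the log2 scale (limma adjusted p = 6.4e-06). Hsp90aa1, a heat shock chaperone, ran from 0 to 21.96% within dentate granule cells and from 0 to 18.6% within layer V neurons, so that its replicates spread widely within a cell type. Its microglia difference was called in 4 alternatives and not in 32. On members with a whole intron it was 2.47 (limma adjusted p = 1.1e-09).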

How the data were processed

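Per the labels and methods, polyadenylated RNA bound to tagged ribosomes was sequenced, and the authors trimmed reads (cutadapt 3.5 in the submitters' processing notes) and quantified transcripts with kallisto 0.46.2 against GENCODE M24. The deposited tables give estimated counts and TPM per transcript, and library totals of 38270477 to 71440915 estimated counts. TPM was used as deposited, and estimated counts in alternatives, rounded for edgeR. Whether kallisto used strand is not given in the sources used here.

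TPM was summed per gene over retained intron and over other transcripts. log2((retained intron TPM + 0.5) / (other TPM + 0.5)) was tested with limma 3.58.1 (R 4.3.3, robust eBayes, Benjamini-Hochberg adjusted p of at most 0.05) in 18 libraries, and edgeR 4.0.16 served as an alternative. Library shares were compared by exact permutation tests (scipy 1.17.1). Introns came from another release, GENCODE M21 on GRCm38, where 21815 of 21915 members were matched. On simulated data for the microglia comparison (3947 genes), 73 of 100 genes changed by 1 on the log2 scale and 94 of 100 changed by 2 were called in the contrast, with 11 unchanged genes called. The F test called 36 and 80 of these, with 14 unchanged genes.

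Genes were named by rule: the 5 highest members, the 5 genes of highest share, up to 4 called genes per comparison with no overlap and the largest difference in percentage points, up to 3 called members per gene list by the F test, and the 3 most abundant genes without a call. Genes on chromosome 18, Xist and Y-linked genes were left out. Some genes that the rule names are not reported here. The members and lists were chosen with earlier results of these data known.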

Additional observations from a re-analysis of the deposited data

How the results depend on the processing

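Depth limits members near 0, whose ratio follows the rest of the gene. The library share of microglia kept its direction in every alternative run, from 1.46 percentage points on estimated counts to 2.10 over coding plus retained intron transcripts, and from 1.74 to 1.97 without 1 library. The glia difference was 1.05 over coding plus retained intron transcripts, 0.791 on estimated counts, 0.952 without the 10 highest members and 1.38 within batch 2, each past the threshold, and 0.630 to 1.14 without 1 library, but -0.0944 within batch 1 and -0.0935 without microglia. Dentate granule cells turned to 0.0622 within batch 1 and 0.0532 without microglia, cerebellar granule cells to 0.0519 and 0.0436, and interneurons to 0.0203 without microglia. The cause was not tested.

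Calls fell with a pseudocount of 0.1 TPM (dentate 516, interneuron 679, astrocyte 1210), with gene TPM of at least 20 and so fewer genes (any difference 2330, dentate 604, cerebellar 1693, interneuron 892, astrocyte 1223, microglia 2127, glia 2110), with retained intron TPM of at least 0.5 (dentate 567, interneuron 798, astrocyte 1216), in edgeR (305, 461 and 1092 for the same cell types) and within batch 2 with fewer libraries (dentate 174, layer V 1109, cerebellar 1566, astrocyte 718). Of alternatives chosen after seeing the data, the share plus 1 percentage point gave 432 for dentate, 610 for interneuron and 859 for astrocyte, and its arcsine square root 484, 655 and 786. Without microglia, interneurons had 712. Members with a whole intron gave, over 1935 genes, 1808 for any difference, dentate 635, layer V 1111, cerebellar 1361, interneuron 824, astrocyte 1111, microglia 1626 and glia 1630. Without 1 library, interneuron calls ran from 929 to 1724, with 935 without interneuron replicate 1 and 929 without replicate 2.

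Centring took 1.38 off the microglia difference of the median gene, so smaller rises turned negative by construction: Itm2b (-0.54), Ppia (-1.01), Myl12b (-0.80), Taf10 (-0.59), Srpk2 (-0.27), Clk1 (-0.80), Pcbp2 (-0.19), Upf3a (-0.19), Smg6 (-1.27), Farsb (-0.60), Eef1a1 (-0.72) and Tpt1 (-0.87). Of 2582 alternative values of named genes, 2523 kept direction and side of the threshold. Samples sharing a replicate number did not deviate together (median correlation 0.021, from -0.12 to 0.23), and with the replicate block 3578 genes differed among cell types, with 2938 higher and 267 lower in microglia.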
